A study of Mus musculus with 6 samples.

Results

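Cytochrome P450 genes were taken as the protein-coding rows of the deposited table whose symbol is Cyp followed by a family number, a subfamily letter and a gene number. The rule found 94 of 54532 genes. It left out Cyp51, the sterol demethylase, and 5 other protein-coding genes with Cyp symbols. The highest level of those 5 in any library was 0.0519 FPKM (fragments per kilobase of gene length, scaled for each library by the authors). The samples were colons of C57BL/6 mice at 56 days after birth. 3 libraries were labelled wild type (WT) and 3 were labelled IL10-/-, here called knockout. Interleukin 10 is a cytokine that restrains inflammation, and mice without it are a widely used model of colitis. The allele, the sex and housing of the mice, and whether each library came from its own mouse are not stated in the labels, so p-values measure only the spread between these libraries.

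P450 enzymes are haem proteins that insert 1 oxygen atom into a substrate, with electrons handed over by cytochrome P450 oxidoreductase in the endoplasmic reticulum or by ferredoxin in mitochondria. Families 1 to 3 are best known for oxidising drugs, plant compounds and pollutants, though several members also act on arachidonic acid; family 4 hydroxylates fatty acids and leukotrienes; the other families make or break down steroids, bile acids, vitamin D and retinoic acid. In the gut they are mainly products of the absorptive epithelium, where they form the first barrier to ingested chemicals.

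Reads recovered from the FPKM values totalled 13107941 to 15797928 per library. The targeted gene does not check the labels by loss of RNA: Il10 was at 0.173 to 0.757 FPKM in the WT libraries but reached 10.6 to 14.5 FPKM where the label was knockout, and the deleted part is not given in the sources used here. The libraries therefore keep their labels as names only. Markers of colon epithelium were present in every library, with all 13 of 13 read, and their summed level was 3660 to 47710 FPKM in WT and 10180 to 21026 FPKM in the knockout-labelled libraries. The sums of 9 smooth muscle markers were 1297 to 9073 and 182 to 1037 FPKM. Those of 5 neutrophil markers were 0.273 to 1.17 and 558 to 1549 FPKM.

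The promoters of 3 neighbouring genes on chromosome 19 are shown first, because they include the 2 tested P450 genes with the widest differences between libraries. Cyp2c55, Cyp2c65 and Cyp2c66 lie side by side on the plus strand at one end of the Cyp2c cluster. Each sequence runs 5′ to 3′ from 250 bases before to 50 bases after the RefSeq start (GRCm38.p6), and capitals mark matches on either strand to TATAAA, the TATA box letters, or to CAAAGTCCA, a core recognised by the epithelial and liver factor HNF4.
Cyp2c55 (chr19:39006769-39007068, plus strand): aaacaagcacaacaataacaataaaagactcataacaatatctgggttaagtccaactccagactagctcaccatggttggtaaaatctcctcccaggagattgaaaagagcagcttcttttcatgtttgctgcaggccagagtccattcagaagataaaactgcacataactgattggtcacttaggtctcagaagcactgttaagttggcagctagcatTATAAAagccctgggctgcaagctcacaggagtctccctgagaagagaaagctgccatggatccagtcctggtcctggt
Cyp2c65 (chr19:39060756-39061055, plus strand): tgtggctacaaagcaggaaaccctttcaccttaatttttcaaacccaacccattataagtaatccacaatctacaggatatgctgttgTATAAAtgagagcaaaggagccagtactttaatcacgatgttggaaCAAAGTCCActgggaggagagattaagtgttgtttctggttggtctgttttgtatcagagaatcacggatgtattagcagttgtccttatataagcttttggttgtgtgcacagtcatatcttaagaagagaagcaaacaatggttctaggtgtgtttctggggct
Cyp2c66 (chr19:39113648-39113947, plus strand): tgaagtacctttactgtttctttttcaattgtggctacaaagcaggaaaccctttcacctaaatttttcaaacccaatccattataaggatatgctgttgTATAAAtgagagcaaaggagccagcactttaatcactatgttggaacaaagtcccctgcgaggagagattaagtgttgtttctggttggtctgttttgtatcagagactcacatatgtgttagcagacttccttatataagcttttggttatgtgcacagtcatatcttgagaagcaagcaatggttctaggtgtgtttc
The Cyp2c65 and Cyp2c66 windows had 256 identical bases among 271 aligned (94.5%). In Cyp2c65 the CAAAGTCCA match began at -116, apart from the TATA letters. In Cyp2c55 the TATAAA match began at position -29 from the start. In Cyp2c65 and Cyp2c66 it began at -162 and -150. Only these exact letters were sought. The similar letters TATATAAG, nearer the start in the Cyp2c65 and Cyp2c66 windows, are therefore not marked. Among the 3, CAAAGTCCA was found in Cyp2c65 alone. Matches were sought in the same 300-base window of every gene. TATAAA was in 14.2% of 27025 promoters and in 29 of the 73 member promoters in the RefSeq table. CAAAGTCCA was in 0.477% of all promoters and in 9 of the 73, namely those of Cyp2c40, Cyp2c65, Cyp2c67, Cyp2c68, Cyp2c69, Cyp2c70, Cyp3a11, Cyp3a16 and Cyp8b1. 4 shorter motifs were sought on both strands too and had no match in the 3 windows: GCGTG, the AH receptor core, was in 16 of the 73 and in 32.5% of all promoters, AGGTCA in 20 and 16%, AGTTCA in 10 and 14%, and GTTAAT in 8 and 7.2%. The last 3 are half-sites of nuclear receptors or HNF1. Neighbouring members are copies of each other, so these matches are not independent, and they describe letters only.

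No P450 gene passed the test for a difference between the labelled genotypes. Of the 94 members, 28 had no read in any library, which allows up to 3 reads in each; 42 had reads but a mean under 1 FPKM over the 6 libraries, and 24 reached that mean and were tested. limma with Benjamini-Hochberg adjustment over 12668 genes called 0 of the 24 higher and 0 lower, where over all genes it called 0.182% higher and 0% lower. With an unadjusted p under 0.05 there was 1 higher member, Cyp2d9, and 1 lower, Cyp2d22, against 6.14% and 4.03% of all genes (10.2% in either direction); voom on the recovered reads also called 0. The smallest adjusted p of a member was 0.441. Log2 fold changes, knockout-labelled minus WT on the log2(FPKM + 1) scale, were positive for 11 members and negative for 13, with a median of -0.38 beside 0.04 over all tested genes. 5 of the 13, Cyp2c68, Cyp2d12, Cyp4b1, Cyp2e1 and Cyp4f17, averaged under 1 FPKM in the knockout-labelled libraries and passed the filter through WT alone, so their direction was set by the filter; among the other 19 members, 11 values were positive and 8 negative, with a median of 0.27. The sign of the median is therefore not a result, and it was also positive, at 0.24, when all tested members were taken without WT library 2. Leaving out 1 library moved the log2 fold change of 22 of the 24 members by more than 1.5 times or turned its sign; the exceptions were Cyp2d9 and Cyp2d22. In 1 member of 24, Cyp2d22, the groups did not overlap, against 16.7% of all tested genes, and it was lower in the knockout-labelled libraries, as were 7.89% of all. An exact two-sided permutation test of 3 against 3 libraries cannot give p below 0.1.

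**Figure D1:**
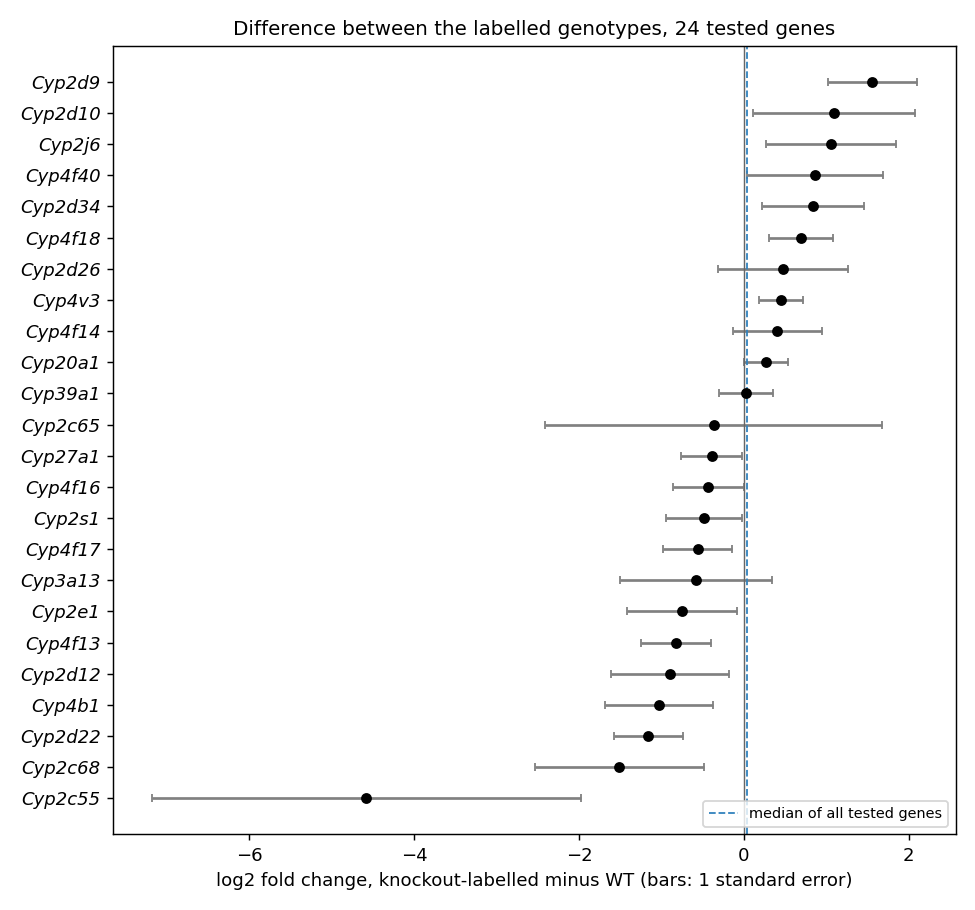
Log2 fold change of each tested P450 gene, knockout-labelled minus WT libraries on the log2(FPKM + 1) scale (x axis), with bars of 1 standard error; the dashed line is the median of all 12668 tested genes. Cyp2c55 has the lowest value, -4.58, with a standard error of 2.61; no gene passed the adjusted threshold.

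The P450 genes had a wide spread over libraries. The difference between the highest and the lowest library on the log2(FPKM + 1) scale had a median of 2.48 over the 24 members and 1.14 over all tested genes, and 21 of the 24 lay above the latter. Among WT libraries alone the median range was 1.95 for the members, and among the knockout-labelled ones it was 0.77; for all genes these were 0.91 and 0.47. The WT range was the wider of the pair for 22 of 24 members, and for 78.4% of all tested genes. WT library 2 was the highest library for 13 of the 24 (54.2%), while it was the highest for 29.9% of all tested genes. Summed over all 94 members, the level was 344, 5349 and 292 FPKM across WT libraries 1 to 3, with 920, 265 and 230.0 FPKM in knockout-labelled libraries 1 to 3. Without Cyp2c55 the sums were 310.4, 857, 148, 471, 265 and 227 FPKM in the same order, so WT library 2 was the highest on both sums and WT library 3 was the lowest on the second.

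**Figure D2:**
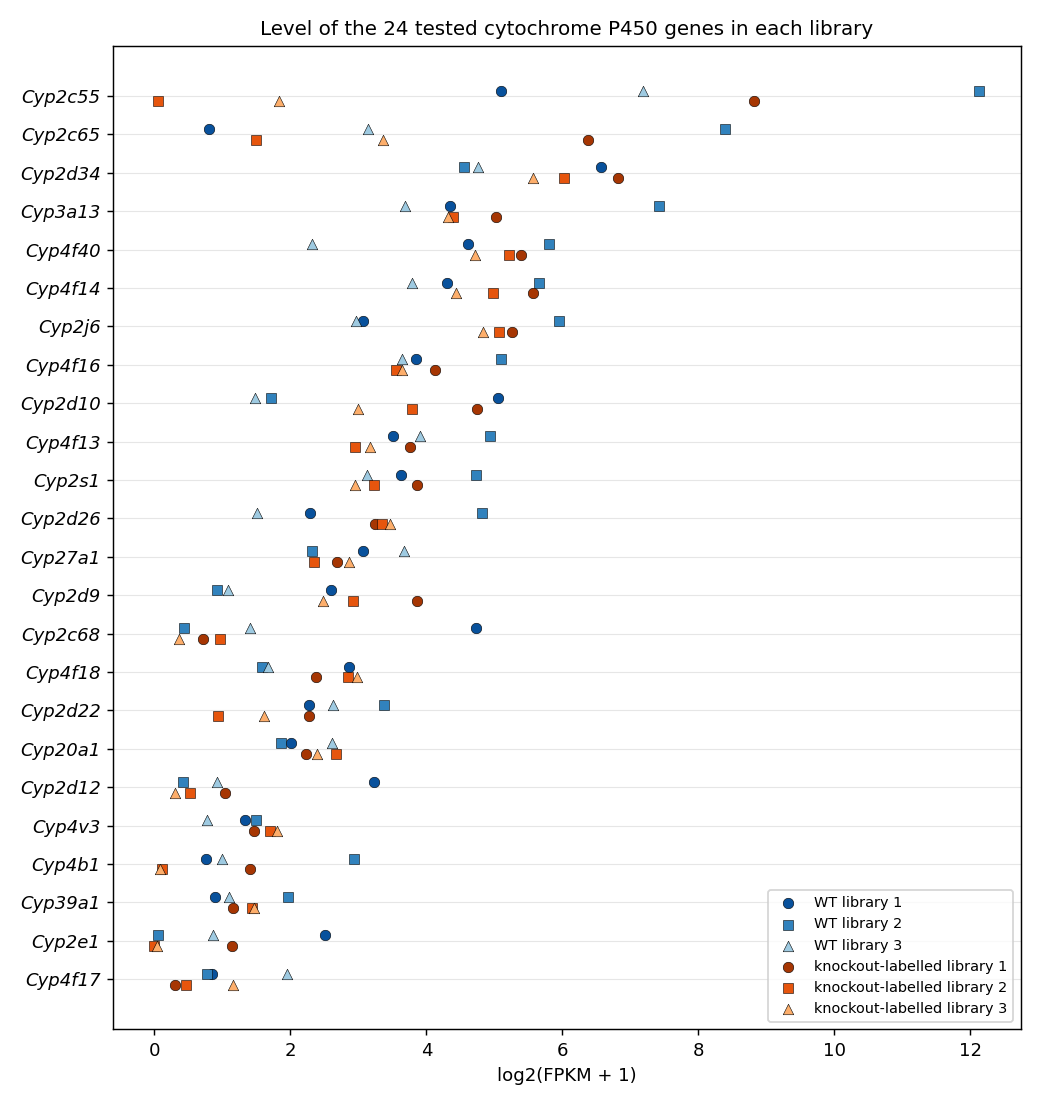
Level of each of the 24 tested P450 genes as log2(FPKM + 1) (x axis), ordered by mean FPKM; blue symbols are WT libraries and orange symbols knockout-labelled libraries, 1 point per library. WT library 2 (blue squares) is the highest point for 13 of the 24 genes, and the colours overlap for every gene but Cyp2d22.

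**Figure D3:**
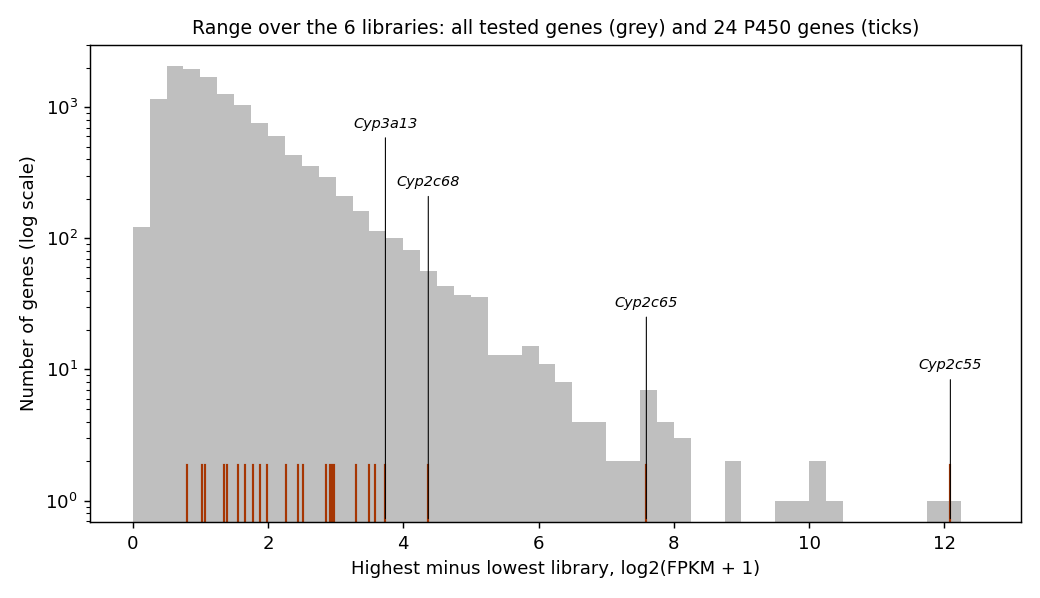
Highest minus lowest library on the log2(FPKM + 1) scale (x axis) for all 12668 tested genes, as a grey histogram with a log count axis, and for the 24 P450 genes as ticks. Cyp2c55, at 12.09, is at the right end of the distribution.

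Cyp2c55, an arachidonic acid hydroxylase of the gut epithelium, had the widest range of all 12668 tested genes. It was at 33.3, 4492 and 145 FPKM across WT libraries 1 to 3, with 449, 0.0319 and 2.55 FPKM in knockout-labelled libraries 1 to 3. WT library 2 was thus the highest and knockout-labelled library 2 the lowest, with the other 4 spread between them and the groups overlapping. The reads behind these levels were 1073, 118305, 3735, 11307, 1 and 83. In WT library 2 the gene took 0.749% of all reads, and in WT library 1 it took 0.00819%. Fold differences in FPKM also carry the scaling of each library. WT library 2 was 135-fold above WT library 1 and 1760-fold above knockout-labelled library 3 in FPKM, while the summed epithelial markers differed 7.24-fold and 4.69-fold between the same pairs. That sum was carried by Car1, a carbonic anhydrase of colon surface cells, at 117, 31511 and 456 FPKM across WT libraries 1 to 3 and 5716, 544 and 481 FPKM across the knockout-labelled set. Car1 thus differed 269-fold between WT libraries 2 and 1, more than Cyp2c55, and 65.5-fold between WT library 2 and knockout-labelled library 3, less than Cyp2c55. Without Car1 the sums differed 2.50-fold and 1.67-fold. The log2 fold change was -4.58 (SE 2.61, adjusted p = 0.604 in limma). It was -2.58 without WT library 2, -7.20 without knockout-labelled library 1 and -2.82 without knockout-labelled library 2. The range ranked 7th without WT library 2 and the third without knockout-labelled library 2 or with a pseudocount of 0.01, and it ranked 1st with a pseudocount of 0.1 and without each other library.

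Its neighbours Cyp2c65 and Cyp2c66 followed the same order at the top. Cyp2c65, another arachidonic acid oxidase, measured 0.739, 335 and 7.87 FPKM across WT libraries 1 to 3, and 82.5, 1.81 and 9.29 FPKM across the knockout-labelled set. Cyp2c66 was at 3.89 FPKM in WT library 2 and at 0.57 FPKM in knockout-labelled library 1, from 100 and 14 reads, and at 0 reads in the other 4 libraries, where 3 reads would be 0.0946 to 0.119 FPKM. In all 3 genes WT library 2 was the highest and knockout-labelled library 1 the next, 1 library from each label. The log2 fold change of Cyp2c65 was -0.37 (SE 2.04, adjusted p = 0.97 in limma), and it turned to 1.77 without WT library 2. Of the 50-base words in Cyp2c65 transcripts, 20.2% also occur in Cyp2c66, so reads of that pair may be shared; for Cyp2c55 only 1.13% occur in any other gene. The mean log2 level of the epithelial markers was likewise highest in those libraries, at 9.87 and 9.45, and 7.59 to 8.91 in the others. Single markers differed: WT library 2 was the highest for 7 of the 13, while Muc2, the goblet cell mucin, was lowest there, at 48.2 FPKM against 175 to 509 FPKM in the other 5. The 8 small intestine markers, 6 of them read, summed to 58.4 to 2639 FPKM in WT and 73.4 to 347 FPKM in the knockout-labelled libraries, with nearly all of the highest sum from Fabp2, a fatty acid binding protein, at 2534 FPKM in WT library 2. Rbp2, a retinol binding protein, and Alpi, an alkaline phosphatase, were also highest in WT library 2, at 56.0 and 47.4 FPKM, and next in knockout-labelled library 1, at 23.0 and 14.4 FPKM, in the order of the 3 Cyp2c genes. Lyz1, a lysozyme, was highest in knockout-labelled library 1, at 9.16 FPKM. Apoa4 and Defa24 had no read in any library, and Lct and Sis were at most 0.0677 FPKM. The part of epithelial content, or of the kind of epithelium, in these levels was not tested.

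**Figure D4:**
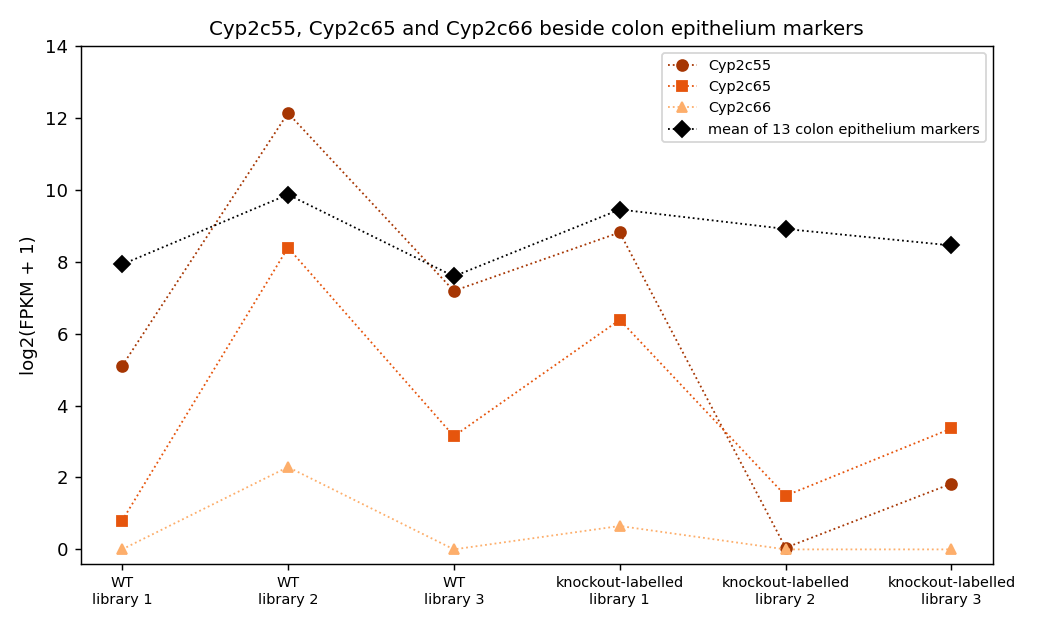
Level as log2(FPKM + 1) (y axis) of Cyp2c55, Cyp2c65, Cyp2c66 and the mean of 13 colon epithelium markers in each of the 6 libraries (x axis); lines only join points of 1 gene. The 3 genes peak in WT library 2 and then in knockout-labelled library 1, and the marker mean runs from 7.59 to 9.87; it averages over markers as unlike as Car1 and Muc2.

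The rest of the Cyp2c cluster was near silent, apart from Cyp2c68. The cluster has 14 members between chromosome 19 positions 39007019 and 40187333 (GRCm38), 7 of them with reads. Cyp2c68 measured 25.6, 0.351 and 1.66 FPKM across WT libraries 1 to 3, and 0.643, 0.959 and 0.285 FPKM across the knockout-labelled set. WT library 1 held 711 of its 804 reads, so the high library was not the one that was high for Cyp2c55. The log2 fold change was -1.51 (SE 1.02, adjusted p = 0.664 in limma), and it was -0.24 without WT library 1 and -2.39 without WT library 2. 43.3% of its 50-base words are shared with other genes, mostly Cyp2c40, which had 6 reads in all. Cyp2c29, Cyp2c37, Cyp2c38, Cyp2c39, Cyp2c50, Cyp2c54 and Cyp2c70, which are mainly liver enzymes, had no read. Cyp2c23, which lies apart on the chromosome and makes arachidonic acid epoxides in kidney, had 31 reads over 5 libraries.

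The Cyp2d genes, related to the human drug-metabolising enzyme CYP2D6, differed in which libraries were high. All 8 lie between chromosome 15 positions 82370527 and 82794294 (GRCm38), all had reads, and 6 were tested. Cyp2d34 was the highest, at 94.3, 22.6 and 26.2 FPKM across WT libraries 1 to 3, with 112, 63.8 and 46.7 FPKM in the knockout-labelled ones. Cyp2d10 measured 32.2, 2.30 and 1.78 FPKM across WT, and 25.9, 12.8 and 6.96 FPKM across the knockout-labelled set. Cyp2d9 was at 5.04, 0.883 and 1.11 FPKM against 13.6, 6.58 and 4.57 FPKM. In each of these 3 genes WT libraries 2 and 3 were the lowest, and WT library 1 lay within or above the knockout-labelled values, so the groups overlapped. Cyp2d9 had the smallest p of the 24 members (log2 fold change 1.56, SE 0.54, p = 0.0247, adjusted p = 0.441 in limma; exact permutation p = 0.2). For Cyp2d34 and Cyp2d10 the log2 fold changes were 0.84 (SE 0.61) and 1.09 (SE 0.98). Cyp2d12, between Cyp2d9 and Cyp2d34, was high in WT library 1 alone, at 8.34 FPKM against 0.237 to 1.06 FPKM in the other 5 (log2 fold change -0.89, SE 0.71; -0.04 without that library).

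At either end of the cluster, WT library 2 was the highest library. Cyp2d22 measured 3.85, 9.38 and 5.21 FPKM across WT libraries 1 to 3, and 3.83, 0.911 and 2.06 FPKM across the knockout-labelled set. Every WT library was above every knockout-labelled one, but the nearest pair differed only from 3.85 to 3.83 FPKM. Its log2 fold change was -1.16 (SE 0.42, p = 0.0299, adjusted p = 0.455 in limma; exact permutation p = 0.1). Cyp2d26 was at 3.91, 27.3 and 1.86 FPKM across WT, with a narrow 8.49, 9.23 and 9.99 FPKM in the knockout-labelled libraries (log2 fold change 0.48, SE 0.79). Cyp2d11 and Cyp2d40, also inside the cluster, had 18 and 2 reads in all. Shared 50-base words made up 35.8% of Cyp2d10, 21.8% of Cyp2d9, 7.55% of Cyp2d34 and 4.13% of Cyp2d22, so the levels of Cyp2d10 and Cyp2d9 are the less certain.

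**Figure D5:**
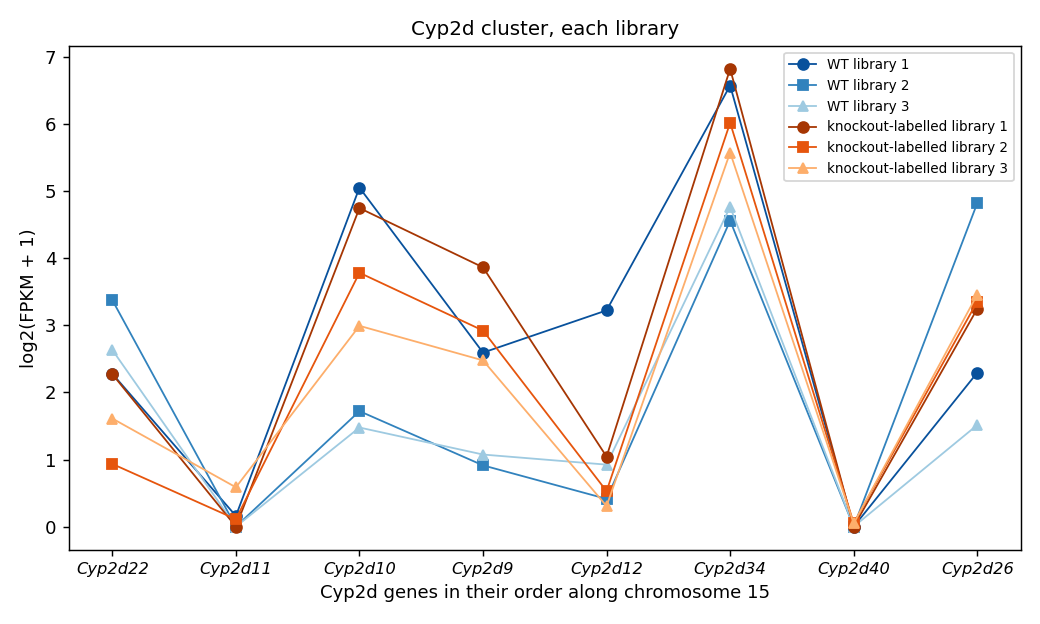
Level as log2(FPKM + 1) (y axis) of the 8 Cyp2d genes in their order on chromosome 15 (x axis), 1 line per library, blue for WT and orange for knockout-labelled libraries; lines only join points of 1 library. WT libraries 2 and 3 are the lowest for Cyp2d10, Cyp2d9 and Cyp2d34, while WT library 2 is the highest for Cyp2d22 and Cyp2d26.

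Among the remaining xenobiotic genes, Cyp3a13 and Cyp2j6 were the highest. Cyp3a13, the main intestinal member of the drug-oxidising Cyp3a genes, measured 19.4, 171 and 11.9 FPKM across WT libraries 1 to 3, and 31.4, 20.03 and 18.9 FPKM across the knockout-labelled set. Apart from WT library 2, its values stayed between 11.9 and 31.4 FPKM. The log2 fold change was -0.58 (SE 0.93), and 0.56 without that library. The other 6 Cyp3a genes, which lie in a separate cluster on chromosome 5, had at most 0.444 FPKM in any library, and Cyp3a11, the main Cyp3a of mouse liver, had 6 reads in all. Cyp2j6, an epoxidase of arachidonic and linoleic acid, measured 7.41, 60.7 and 6.83 FPKM across WT, and 37.4, 32.6 and 27.4 FPKM across the knockout-labelled set. The knockout-labelled values were close together, and WT values lay on both sides of them. Its log2 fold change was 1.06 (SE 0.78, adjusted p = 0.7 in limma). Without WT library 2 it was 2.03 (adjusted p = 0.0488), the 1 call of a member over the 18 alternatives, each of which reuses these libraries; that fit called 0.182% of all genes higher. Cyp2s1, found in many surface epithelia, measured 11.3, 25.6 and 7.72 FPKM across WT, and 13.5, 8.42 and 6.72 FPKM across the knockout-labelled set (log2 fold change -0.48, SE 0.46).

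Cyp2e1, which oxidises ethanol and is abundant in liver and fat, measured 4.71, 0.0351 and 0.825 FPKM across WT libraries 1 to 3, and 1.21, 0 and 0.0284 FPKM across the knockout-labelled set. WT library 1, knockout-labelled library 1 and WT library 3 were high, and the other 3 held 0 or 1 read each; the log2 fold change was -0.75 (SE 0.67), and -0.06 without WT library 1. Adipoq, the fat cell hormone adiponectin, measured 1.48, 0 and 1.23 FPKM across WT, and 0.918, 0 and 0 FPKM across the knockout-labelled set. All 7 adipocyte markers were read. Adipoq, Plin1, Lep and Cfd were at 0 in WT library 2 and in knockout-labelled libraries 2 and 3. Cyp2e1 held 0 or 1 read in those 3 libraries, but Retn, Cidec and Fabp4 were not at 0 there. Retn, a further fat cell marker, held 1, 2 and 2 reads in them. In WT library 3, where Cyp2e1 held 23 reads, Retn and Lep were at 0. Cidec, a lipid droplet protein, was highest in WT library 2, at 39.4 FPKM, and at 7.19 and 4.49 FPKM in knockout-labelled libraries 2 and 3. Fabp4, a fatty acid carrier, was at 2.94, 0.935 and 3.20 FPKM in those 3 libraries. The 7 markers had sums of 22.7 to 42.4 FPKM in WT and 7.77 to 27.4 FPKM in the knockout-labelled libraries, with the highest sum in WT library 2. Of the 7 hepatocyte markers 6 were read, with sums of 3.55 to 27.02 FPKM in WT and of 3.04 to 7.64 FPKM in knockout-labelled libraries, mostly Ttr, at 26.4 FPKM in WT library 1; Alb was at most 0.812 FPKM and Serpina1a had no read. The part of fat in the Cyp2e1 level was not tested, and in bulk tissue fewer cells of a type and less RNA per cell cannot be told apart. Cyp2f2, an enzyme of airway cells, had 70 of its 73 reads in WT library 1.

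Family 4 was led by the Cyp4f genes, which inactivate leukotrienes and hydroxylate long fatty acids. 8 of the 9 Cyp4f genes lie together between chromosome 17 positions 32468462 and 32947402 (GRCm38), and all had reads. Cyp4f40 measured 23.5, 55.03 and 3.998 FPKM across WT libraries 1 to 3, and 41.1, 36.1 and 25.4 FPKM across the knockout-labelled set. Cyp4f14, a leukotriene B hydroxylase, measured 18.8, 49.7 and 12.8 FPKM across WT, and 46.6, 30.5 and 20.6 FPKM across the knockout-labelled set. Both were highest in WT library 2 and lowest in WT library 3. Cyp4f16 measured 13.5, 33.4 and 11.5 FPKM across WT, and 16.5, 10.7 and 11.4 FPKM across the knockout-labelled set. Cyp4f13 was at 10.4, 29.7 and 14.1 FPKM against 12.5, 6.74 and 8.01 FPKM (log2 fold change -0.83, SE 0.42, adjusted p = 0.562 in limma). For Cyp4f40, Cyp4f14 and Cyp4f16 the log2 fold changes were 0.86 (SE 0.83), 0.41 (SE 0.55) and -0.43 (SE 0.43). Cyp4f15 had 126 reads, all of them in WT library 2, where it was at 4.18 FPKM; 0 reads in the other 5 libraries allow up to 0.0806 to 0.104 FPKM. Cyp4f17 was at 1.47 ± 1.22 FPKM across WT, with 0.614 ± 0.54 FPKM in the knockout-labelled libraries (SD, n = 3), highest in WT library 3, and its log2 fold change was -0.56 (SE 0.42).

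Cyp4f18, which ends the action of leukotriene B in neutrophils and other white cells, lies apart on chromosome 8. It measured 6.25, 2.001 and 2.17 FPKM across WT libraries 1 to 3, and 4.19, 6.17 and 6.88 FPKM across the knockout-labelled set. WT library 1 lay among the knockout-labelled libraries, so the groups overlapped, and the log2 fold change was 0.70 (SE 0.39, adjusted p = 0.593 in limma). The 5 neutrophil markers summed to 1.17 FPKM in WT library 1 and to 558 or more in each knockout-labelled library. The 7 macrophage markers, all read, summed to 341, 120.5 and 187 FPKM in WT and to 223, 490 and 380 FPKM in the knockout-labelled libraries. Lyz2, a lysozyme also made by other myeloid cells, gave 249.96 FPKM of the sum in WT library 1 and 395 FPKM of that in knockout-labelled library 2; without it the sums were 51.4 to 90.96 and 59.7 to 99.9 FPKM. Adgre1, Mrc1 and Cd163 had lower means in the knockout-labelled libraries, 1.72 against 2.65, 1.42 against 2.81 and 0.206 against 0.52 FPKM. Csf1r, Cd68 and C1qa had higher means there, 13.7 against 7.35, 15.3 against 10.7 and 52.6 against 51.8 FPKM. The part of either cell type was not tested. Part of Cyp4f18 overlaps Zfp961 on the other strand, with the strand setting unknown, which leaves the overlapping reads unassigned. Cyp4b1, which oxidises fatty acids and some toxins, was at 6.61 FPKM in WT library 2, at 1.65 FPKM in knockout-labelled library 1 and at 0.995 FPKM or less in the others, as in the order of Cyp2c55 at the top. Its log2 fold change was -1.03 (SE 0.66). Cyp4v3, a fatty acid hydroxylase of many tissues, ran from 0.711 to 2.5 FPKM, 3.51-fold from lowest to highest library (log2 fold change 0.45, SE 0.27). The 5 Cyp4a genes, which mark fatty acid sensing in liver and kidney, had 2 reads in all, both of Cyp4a14.

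Bile acid and cholesterol genes other than Cyp27a1 were low, and the liver's entry enzyme had no read. Cyp7a1, the rate-limiting enzyme of bile acid synthesis in liver, had no read, and Cyp8b1, which sets the balance of bile acids, had 15. Cyp27a1, a mitochondrial sterol hydroxylase, measured 7.39, 3.97 and 11.7 FPKM across WT libraries 1 to 3, and 5.43, 4.07 and 6.29 FPKM across the knockout-labelled set. WT library 3 was the highest, and 2 WT libraries lay above all knockout-labelled ones; the log2 fold change was -0.39 (SE 0.37, adjusted p = 0.771 in limma). Cyp39a1, an oxysterol hydroxylase, was at 1.63 ± 1.11 and 1.56 ± 0.294 FPKM (SD, n = 3). Its log2 fold change was 0.03 (SE 0.33). Cyp7b1, which clears oxysterols, was just under the mean of 1 FPKM, at 0.257, 0.455 and 0.857 FPKM across WT, with 0.402, 1.32 and 2.1 FPKM in the knockout-labelled libraries, from 46 and 130 reads. The brain cholesterol hydroxylase gene Cyp46a1 had 20 of its 38 reads in WT library 3.

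Genes that activate or break down vitamins and hormones were barely read. Cyp2r1, which starts vitamin D activation, had 69 reads and was at 0.0301 to 0.674 FPKM. Cyp27b1, which completes it, had 25 of its 51 reads in WT library 3, and Cyp24a1, which breaks vitamin D down, had 1 read. Cyp26b1, which breaks down retinoic acid, measured 0.162, 1.12 and 0.145 FPKM across WT, and 0.074, 0.0238 and 0.195 FPKM across the knockout-labelled set, so 79 of its 127 reads were in WT library 2. Cyp26a1 had 1 read and Cyp26c1 none. Of the 6 steroid hormone genes, Cyp19a1, the aromatase, had no read, Cyp17a1 had 1, Cyp11b2 2, Cyp21a1 5, Cyp11b1 8 and Cyp11a1, which starts steroid synthesis, 9. Cyp11b1 overlaps Gml2 on the other strand, and Gml2 was at 6.26 to 17.7 FPKM in the knockout-labelled libraries and at 0 in WT. With the strand setting unknown, reads in the overlap cannot be assigned to either gene. In knockout-labelled library 1, Gml2 was at 15.9 FPKM and Cyp11b1 had 0 reads. Cyp20a1, whose substrate is not known, was the most even of the tested members, at 3.01, 2.65 and 5.11 FPKM across WT libraries 1 to 3, with 3.67, 5.37 and 4.27 FPKM in the knockout-labelled ones. Its log2 fold change was 0.27 (SE 0.27).

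Cyp1a1, the classic target of the aryl hydrocarbon receptor (AHR), was low. It measured 0.356, 1.25 and 0 FPKM across WT libraries 1 to 3, and 0.171, 0 and 0.11 FPKM across the knockout-labelled set, from 62 and 11 reads, and it was not tested. WT library 2 was again the highest, with 46 reads, while WT library 3 and knockout-labelled library 2 had none. Cyp1b1, a further AHR target, had 22 reads over WT and 1 over the knockout-labelled libraries, with 15 in WT library 3; Cyp1a2 had no read. Among the 42 members with reads under the filter, the groups did not overlap for 3. Of all genes with reads under it, 10.6% did not overlap, in either direction. The 3 were Cyp1b1, Cyp2j9 and Cyp2u1, each lower in the knockout-labelled libraries. For Cyp1b1 this was within counting error. WT library 1 was at 0.0242 FPKM, from 2 reads, and 0 reads in knockout-labelled libraries 1 and 2 allow up to 0.0463 and 0.0372 FPKM. Cyp2j9, an epoxidase known from brain, measured 0.873, 0.772 and 2.25 FPKM across WT, and 0.356, 0.229 and 0.68 FPKM across the knockout-labelled set. The fatty acid hydroxylase gene Cyp2u1 had 68 reads in WT and 41 in the knockout-labelled libraries. Its nearest pair was WT library 2, at 0.26 FPKM from 18 reads, and knockout-labelled library 1, at 0.212 FPKM from 14. For Cyp2j9 the nearest pair was WT library 2 and knockout-labelled library 3, from 34 and 37 reads. Counting error could close these gaps too. Under the filter, WT library 3 was the highest for Cyp1b1, Cyp2j9, Cyp2u1, Cyp4x1, Cyp27b1 and Cyp46a1. It was also the highest for Cyp2c40 and Cyp3a11, with 6 reads each. These genes are from the 42 members with reads under the filter, and the share over all such genes was not counted. For Cyp2u1 it was only just above WT library 1, at 0.339 against 0.319 FPKM. Among the 24 tested members WT library 3 was the highest for 2 (8.33%), against 23.0% of all tested genes. That library also had the highest sum of the 9 smooth muscle markers, all read, 9073 FPKM against 182 to 1488 in the others. The 7 fibroblast markers, all read, also had their highest sum there, 377 FPKM against 70.4 to 161 in the others. The part of muscle or of fibroblasts in these levels was not tested.

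The partners and regulators of the P450 enzymes gave no call either. Of 9 electron donor genes 8 were tested, of 6 genes of the AHR axis 5, of 11 nuclear receptors 8 and of 5 epoxide and eicosanoid genes 4, with 0 called in either direction by limma. Their median log2 fold changes were -0.16, -0.08, 0.15 and -0.17. Por, the oxidoreductase that feeds all P450 enzymes of the endoplasmic reticulum, measured 6.96, 78.7 and 12.7 FPKM across WT libraries 1 to 3, and 18.5, 21.9 and 19.7 FPKM across the knockout-labelled set. WT library 2 was the highest, and the log2 fold change was 0.03. That library was also the highest for 13 of the 24 tested members, against 29.9% of all tested genes. It was the highest for 22 of the 66 members with reads, with no share over all genes with reads counted. Nr1h4, the bile acid receptor FXR, measured 24.3, 54.7 and 11.4 FPKM across WT, and 90.8, 58.0 and 65.5 FPKM across the knockout-labelled set (log2 fold change 1.46, adjusted p = 0.459 in limma). Nr1i2, the drug-sensing receptor PXR, was at 9.85 to 44.4 FPKM in WT, with 18.6 to 25.4 FPKM in the knockout-labelled libraries, and Ahr was at 2.78 to 4.27 and 1.58 to 2.45 FPKM, with log2 fold changes of 0.12 and -0.54. Ptgis, prostacyclin synthase, measured 1.62, 1.59 and 6.21 FPKM across WT, and 1.05, 0.223 and 0.621 FPKM across the knockout-labelled set (log2 fold change -1.20, adjusted p = 0.459 in limma). Nr1h4 and Ptgis were the 2 genes of these lists with an unadjusted p under 0.05, among 25 tested (8%, against 10.2% of all tested genes). The groups did not overlap for 4 of the 25, Nr1h4, Ptgis, Ahr and Pgrmc2 (16%, against 16.7% of all tested genes).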

How the data were processed

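Gene expression was measured by RNA sequencing of colon RNA in 6 libraries. The authors deposited 1 table of FPKM values, which also lists where each gene lies, its length and its biotype, per the file headers. Bowtie 0.12.2 and the builds hg38 and mm8 stand in the submitters' processing notes with no role for either build; which counter and strand setting were used, and how multiply mapping reads were treated, is not given in the sources used here. All 94 members are in GENCODE release M21, 84 with identical coordinates, so positions are given as GRCm38.

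Reads were recovered by multiplying FPKM by gene length and dividing by the step of each library; 100% of values above 0 came out whole within 0.01. The library size implied by the step ran from 0.836 of the recovered reads, in WT library 2, to 1.23, in WT library 1. The same share of reads therefore gives a higher FPKM in WT library 2 than in WT library 1. Read floors cover counting error only. Chi-square per gene was 60.7 or more for every pair of libraries, so none repeats another. Groups and replicate numbers came from titles; 0 sample columns were left unused.

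Genes whose FPKM averaged 1 or more across the 6 libraries were fitted as log2(FPKM + 1) with limma 3.58.1 in R 4.3.3 (mean trend, no replicate block), with Benjamini-Hochberg adjustment over all of them and a threshold of 0.05. All 24 members past the filter are named, with the value in every library for those with an unadjusted p under 0.05, those among the 10 highest or those alone in their role, and for others chosen after their values were seen; genes under the filter were named where a role list held them or a library reached 1 FPKM, or after their values were seen. Marker sums without Car1 or Lyz2, and the member count without genes under 1 FPKM in one group, were added after seeing the data. Members and lists were chosen with earlier results of these data known. Shared 50-base words were counted in GENCODE transcripts on both strands, a length chosen here. Promoters came from RefSeq (GRCm38.p6), with 73 of 94 members matched by symbol and the first listed window used. The fit was tested on simulated data. Alternatives were other pseudocounts, filters, scalings, weights, robust variance, a replicate block, voom on recovered reads and leaving out each library. Other steps ran in Python 3.11.15 with pandas 2.3.3 and numpy 2.4.6, and plots were drawn with matplotlib 3.10.9.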

Additional observations from a re-analysis of the deposited data

How the results depend on the processing

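Over the 18 alternatives, 0 P450 genes were called lower in any, and 0 were called higher in 17. Without WT library 2 the number called higher was 1, Cyp2j6, and the median log2 fold change of the members was 0.24 in place of -0.38. Leaving out 1 library at a time gave medians from -0.40 to 0.24 and 0 to 1 calls. The median was also above 0, at 0.02, with a mean FPKM of at least 5, where 14 members were tested. With the replicate number as a block 0 members were called. The median stayed at -0.38, because each number has 1 library per label and the block cannot change a log2 fold change. Same-numbered libraries had correlations of their deviations from the group means of -0.15, 0.18 and 0.40. Those of differently numbered libraries ran from -0.39 to 0.18. The numbers were not taken as pairs, a question that these values do not settle.

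Of 422 values of single genes, 14 changed sign, all of genes with no call. The other filters, the robust variance and the replicate block cannot change a log2 fold change. Their values are among the 422, so that part could not change sign. With array weights, which were 2.76, 0.198 and 0.465 for WT libraries 1 to 3, they were Cyp2c65 (1.44), Cyp2d34 (-0.16), Cyp3a13 (0.058) and Cyp2d10 (-0.63). The other 10 came from leaving out 1 library, where the log2 fold change ran from -2.02 to 1.77 for Cyp2c65, from -1.31 to 0.56 for Cyp3a13, from -0.10 to 1.64 for Cyp4f40, from -0.70 to 0.023 for Cyp4f16, from -0.20 to 1.45 for Cyp2d26 and from -0.18 to 0.35 for Cyp39a1. The signs turned without WT library 2 for Cyp2c65, Cyp3a13 and Cyp4f16, without WT library 3 for Cyp4f40, Cyp2d26 and Cyp39a1, without knockout-labelled library 2 for Cyp2c65 (0.76) and Cyp39a1 (-0.01), and for Cyp39a1 also without WT library 1 and without knockout-labelled library 3 (-0.02). The cause of these changes was not tested. For the other 16 members the sign was the same in each alternative that gave a value, but the size was not. Leaving out 1 library took Cyp4f14 from 0.41 to 0.0093 and Cyp27a1 from -0.39 to -0.06 (without WT library 3), Cyp2s1 from -0.48 to -0.03 and Cyp4b1 from -1.03 to -0.34 (without WT library 2), and Cyp2d12, Cyp2e1 and Cyp2c68 to -0.04, -0.06 and -0.24 (without WT library 1). In all, 22 of the 24 members moved by more than 1.5 times or changed sign. TPM moved the median of all genes by 0.11. 10 members were not tested at a mean FPKM of at least 5. With 3 libraries a label and spreads among WT libraries such as those of Cyp2c55, an undetected difference does not show that levels were alike. The settings under which the range of Cyp2c55 was ranked again were chosen after seeing the data.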
